A study of Mus musculus with 4 samples.

Results

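CC chemokines are small secreted proteins named for a pair of adjacent cysteines, and they draw leukocytes along a concentration gradient through G protein-coupled receptors of the Ccr family. Different ligands reach different cells: Ccl2 and Ccl7 draw monocytes through Ccr2, Ccl20 draws cells that carry Ccr6, and Ccl27a, a product of keratinocytes, draws skin-homing T cells through Ccr10. Several of these genes are textbook targets of NF-kB, the transcription factor that is released when the IKK complex marks its inhibitors for destruction. Here 10 CC chemokine genes, Ccl1, Ccl2, Ccl5, Ccl7, Ccl8, Ccl9, Ccl17, Ccl20, Ccl22 and Ccl27a, were examined in mouse back skin. They were taken by name, as all probe sets whose only annotated symbol is that of such a gene. The rule gave 11 probe sets of 45101, with 2 for Ccl9 and 1 for each other gene. All 11 were brighter in skin of K5-IKKbeta transgenic mice than in wild type skin, by measured ratios of 1.43 for Ccl27a to 8.75 for Ccl2. The measured ratios were largest for Ccl2, Ccl1 and Ccl20, and the wild type signals of Ccl2, Ccl7 and Ccl17 were no brighter than those of several genes that belong to other organs. A further 2 probe sets listed Ccl27a beside other symbols and were left out by the rule.

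RNA from back skin of K5-IKKbeta transgenic mice (2 arrays) was compared with RNA from wild type back skin (2 arrays). The transgene puts the IKKbeta gene under keratin K5 control, and keratin K5 is a product of basal keratinocytes in epidermis and hair follicle. Wild type mice carry no such transgene. All mice were males of the strain cross C57BL6 X DBA2, aged 32 days, and every array held RNA pooled from 3 animals. Errors and p-values thus describe how pools differ, and variation among individual animals is averaged away.

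The array platform measured whole skin, so more cells of a type and more RNA per cell cannot be told apart in any value below. Median log2 values over all probe sets were 6.96 and 6.95 in K5-IKKbeta arrays, against 6.92 and 6.91 in wild type arrays. Of 5 Ikbkb probe sets 3 passed the threshold and were higher, led by 1454184_a_at with 8.77 and 8.74 in K5-IKKbeta against 6.50 and 6.54 in wild type skin. Where each of them lies relative to the transgene was not analysed here. Each log2 fold change is the K5-IKKbeta mean minus the wild type mean. Tests were made with limma, p-values were adjusted by the Benjamini-Hochberg method over all 45101 probe sets, and a probe set was called when its adjusted p was under 0.05.

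The 250 bases before the annotated start (RefSeq, mouse build GRCm38.p6) are shown for the 3 members in whose window the NF-kB consensus was found. These 3 were picked by the match alone, since all 10 members were called higher. Whether the match has a part in the rise was not tested. Capitals mark the match to the consensus, searched on both strands, and each sequence runs 5′ to 3′ on the strand of its gene. The windows lie at chr11:82179813-82180062 (minus strand) for Ccl1, at chr11:83578637-83578886 (minus strand) for Ccl9 and at chr1:83116516-83116765 (plus strand) for Ccl20.
Ccl1: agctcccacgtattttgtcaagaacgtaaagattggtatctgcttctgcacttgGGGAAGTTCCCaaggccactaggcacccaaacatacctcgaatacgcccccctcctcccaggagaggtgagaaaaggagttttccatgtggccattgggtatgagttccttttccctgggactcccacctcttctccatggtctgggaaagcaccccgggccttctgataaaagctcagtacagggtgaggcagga
Ccl9: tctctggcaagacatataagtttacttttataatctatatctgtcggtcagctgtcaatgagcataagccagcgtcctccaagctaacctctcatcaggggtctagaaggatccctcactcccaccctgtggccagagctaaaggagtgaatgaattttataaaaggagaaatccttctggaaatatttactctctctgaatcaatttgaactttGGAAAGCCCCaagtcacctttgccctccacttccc
Ccl20: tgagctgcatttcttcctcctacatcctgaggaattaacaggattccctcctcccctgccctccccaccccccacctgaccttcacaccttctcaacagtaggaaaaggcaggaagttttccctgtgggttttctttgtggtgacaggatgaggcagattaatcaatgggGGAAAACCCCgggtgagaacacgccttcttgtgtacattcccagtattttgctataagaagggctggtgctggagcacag

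In Ccl1 the match began 196 bases before the start, with GGGAAGTTCC on the gene's strand and GGGAACTTCC, shifted by a base, on the other. Ccl20 held GGGGTTTTCC on the opposite strand, between 80 and 71 bases before its start. Ccl9 held GGGGCTTTCC, also on the opposite strand, between 35 and 26 bases before its start, just downstream of TGAATCA, a match to the AP-1 motif. Promoter windows were at hand for 7 of the 10 genes, and not for Ccl2, Ccl5 and Ccl7, which were not searched. There were 9 windows in all because Ccl27a has 3 annotated starts, and 3 of the 9 held the NF-kB consensus. Among all 32851 promoter windows of the same length 7.25% held it. The shorter form GGGNNTTCC, which overlaps the consensus, was found in 2 of the 9 windows (Ccl20 and Ccl9) and in 4.98% of all windows. The STAT motif TTCNNNGAA was found in Ccl17 only among the 9 windows, against 7.02% of all windows, and TGANTCA, the AP-1 motif, in Ccl9 and 1 window of Ccl27a, against 6.75% of all. A match in letters is a description and not a measured binding site.

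All 11 probe sets of the 10 genes were higher in K5-IKKbeta skin and past the threshold, and none was lower. Of all probe sets, 10.4% were called higher. Both K5-IKKbeta arrays lay above both wild type arrays for 11 of 11 probe sets, against 30.3% of all probe sets. The measured sizes ranged from 1.43-fold for Ccl27a to 8.75-fold for Ccl2, and the median log2 fold change was 0.95, against 0.00 over all probe sets. Of the 11, 5 were at least 2-fold higher: Ccl2, Ccl1, Ccl20 and both probe sets of Ccl9. Since the members were proposed with results of these data known, their count is a description. Limma's call leans on the spread shared across probe sets: without that moderation none of the 11 passed (lowest adjusted p = 0.116) and 7 had an unadjusted p under 0.05.

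**Figure D1:**
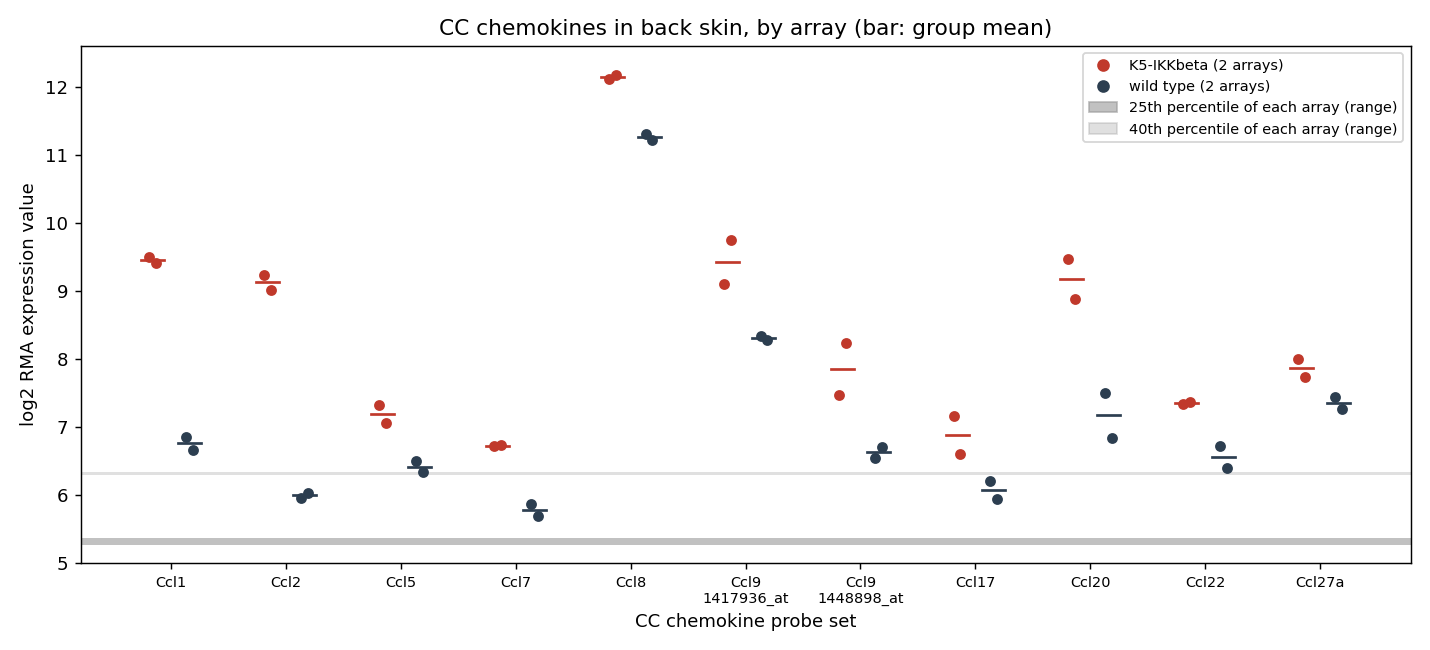
Log2 RMA expression values (vertical axis) of the 11 CC chemokine probe sets in 2 K5-IKKbeta arrays (red, left of each pair) and 2 wild type arrays (dark), with bars at the group means and grey bands at the 25th and 40th percentiles of the arrays. In all 11 the red points lie above the dark ones. The gap is widest for Ccl2 (log2 fold change 3.13) and Ccl1 (2.69).

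Ccl2, the main monocyte attractant of the family, gave values of 9.24 and 9.02 in the K5-IKKbeta pools, against 5.96 and 6.04 in the wild type pools. The means were 9.13 ± 0.15 and 6.0 ± 0.05 (SD, n = 2 each), so the pools of each genotype lay close together and far from the other genotype. The log2 fold change was 3.13 (95% interval 2.84 to 3.42, adjusted p = 4.73e-05), a measured ratio of 8.75. Its wild type level lay near background, at percentiles 34.0 and 35.9, and the rise was at least 7.04-fold with the 40th percentile of each wild type array in its place. Ccl7, a neighbour of Ccl2 that also binds Ccr2, reached 6.72 and 6.73 in K5-IKKbeta skin, against 5.87 and 5.69 in wild type skin. It rose by a measured 1.93-fold (log2 fold change 0.95, interval 0.67 to 1.23, adjusted p = 0.00294), and by at least 1.33-fold on the same terms. With both wild type levels near background, the sizes of the rises of Ccl2 and Ccl7 cannot be compared.

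For that receptor, Ccr2, the probe sets disagreed. Probe set 1421186_at measured 8.48 and 9.04 in K5-IKKbeta skin, against 7.04 and 6.94 in wild type skin (log2 fold change 1.77, adjusted p = 0.00188). The probe sets 1421187_at and 1421188_at were higher too, at 1.82 (adjusted p = 0.011) and 0.90 (adjusted p = 0.00669). Wild type values of 1421187_at lay below the 40th percentile, and against it the rise was at least 2.02-fold. The brightest, 1460067_at, had a log2 fold change of 0.19 (interval -0.10 to 0.48, adjusted p = 0.376), and it is the brightest that stands for the gene in the counts of receptors below. Without wild type pool 1 the call of 1421187_at was lost (adjusted p = 0.0835), and without wild type pool 2 that of 1421188_at (adjusted p = 0.0703).

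Ccl1 and Ccl8 bind Ccr8 in the mouse, a receptor of T cell subsets. Ccl1 values were 9.50 and 9.40 in K5-IKKbeta skin, against 6.86 and 6.67 in wild type skin. The means were 9.45 ± 0.07 in K5-IKKbeta and 6.76 ± 0.14 in wild type skin (SD, n = 2 each), with no overlap, and the rise was 6.46-fold (log2 fold change 2.69, interval 2.40 to 2.98, adjusted p = 8.24e-05). Ccl8 reached 12.12 and 12.18 in K5-IKKbeta skin, against 11.30 and 11.22 in wild type skin. Its rise was 1.85-fold (log2 fold change 0.89, interval 0.63 to 1.15, adjusted p = 0.00291) and rested on pools that differed by at most 0.08 within a genotype. Ccl8 lay among the brightest probe sets of every array, at percentiles 98.4 and 98.5 in K5-IKKbeta skin and 96.9 and 96.4 in wild type skin. Ccr8 itself lay below the 25th percentile on all 4 arrays, with a log2 fold change of 0.22 (interval -0.05 to 0.48, adjusted p = 0.254).

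Ccl20, the ligand of Ccr6 and a chemokine of epithelia, varied more between pools. Its values were 9.46 and 8.89 in K5-IKKbeta skin, against 7.50 and 6.84 in wild type skin. Both pools with the number 1 were the higher of their genotype, by 0.58 and 0.66, and the genotypes still did not overlap. The 4.01-fold rise (log2 fold change 2.003, interval 1.36 to 2.64, adjusted p = 0.0041) kept its call whichever array was left out. Ccr6 was called higher, with 7.94 and 7.56 in K5-IKKbeta skin against 7.26 and 6.92 in wild type skin (log2 fold change 0.66, adjusted p = 0.0486). That call was lost without K5-IKKbeta pool 1 (adjusted p = 0.133), without wild type pool 1 (0.0965), without wild type pool 2 (0.284), with another quantile normalization (0.0662) and with each array centred on its median (0.0517).

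Ccl9, a ligand of Ccr1 made by myeloid cells, was measured by 2 probe sets that moved alike. Probe set 1417936_at gave 9.11 and 9.75 in K5-IKKbeta skin, against 8.34 and 8.29 in wild type skin (log2 fold change 1.12, interval 0.62 to 1.61, adjusted p = 0.0143). Probe set 1448898_at gave 7.47 and 8.24 in K5-IKKbeta skin, against 6.55 and 6.71 in wild type skin (log2 fold change 1.23, interval 0.65 to 1.80, adjusted p = 0.0174). On both, K5-IKKbeta pool 2 was the higher, by 0.64 and 0.76, the opposite order to Ccl20. Ccl5, a ligand of Ccr1 and Ccr3 made by T cells and many other cells, measured 7.32 and 7.06 in K5-IKKbeta skin, against 6.50 and 6.34 in wild type skin. It was 1.71-fold higher (log2 fold change 0.77, interval 0.45 to 1.10, adjusted p = 0.0116). Without wild type pool 1 the adjusted p was 0.0649 for Ccl5 and 0.0954 and 0.127 for the Ccl9 probe sets, and without wild type pool 2 it was 0.115 for Ccl5 and 0.113 and 0.1 for those of Ccl9, so these calls need both wild type pools. The Ccl5 call was also lost in a test against a 1.2-fold change (0.0503). The receptors Ccr1, at 0.31 (adjusted p = 0.394), and Ccr3, at -0.07 (adjusted p = 0.816), did not pass, and Ccr3 lay below the 25th percentile on all 4 arrays.

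Ccl17 and Ccl22 share the receptor Ccr4 of type 2 helper and regulatory T cells and are made mainly by dendritic cells. Ccl22 gave 7.33 and 7.37 in K5-IKKbeta skin, against 6.72 and 6.39 in wild type skin. It rose 1.74-fold (log2 fold change 0.80, interval 0.46 to 1.13, adjusted p = 0.0115), a call lost without wild type pool 2 (adjusted p = 0.0957). Ccl17 gave 7.16 and 6.61 in K5-IKKbeta skin, against 6.20 and 5.94 in wild type skin. Its rise of similar fitted size (1.76-fold, log2 fold change 0.81, interval 0.33 to 1.29, adjusted p = 0.0389) was less precise, since K5-IKKbeta pool 2 lay near the wild type pools. The Ccl17 call was lost without K5-IKKbeta pool 1 (adjusted p = 0.075), without wild type pool 1 (0.12), without wild type pool 2 (0.239) and in a test against a 1.2-fold change (0.142). Ccr4 had a log2 fold change of -0.11 (interval -0.41 to 0.19, adjusted p = 0.646) and lay below the 40th percentile on all arrays.

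Ccl27a had the smallest measured change. Its probe set measured 8.002 and 7.74 in K5-IKKbeta skin, against 7.44 and 7.27 in wild type skin. The groups did not overlap, but the log2 fold change of 0.51 (interval 0.19 to 0.84, 1.43-fold) was only just past the threshold (adjusted p = 0.0488). The call was lost when any array other than K5-IKKbeta pool 2 was left out (adjusted p = 0.134 to 0.287), with another quantile normalization (0.074), with each array centred on its median (0.0565) and in a test against a 1.2-fold change (0.355). Its probe set, 1434962_x_at, carries an ending that marks shared sequence, and near-identical copies of the gene exist in the mouse, so the value may hold signal from them. Ccr10, its receptor, had a log2 fold change of 0.15 (interval -0.13 to 0.42, adjusted p = 0.473).

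The distance from background differed widely between members. No member lay below the 25th percentile of any array. As a yardstick, 19 genes of other organs, such as the protamines of sperm and the hormones of the pituitary, had a median at percentile 31.0, with single values from 3.17 to 8.12 on the log2 scale. In wild type skin Ccl7 lay at the 32.4 and 30.4 percentiles, Ccl2 at 34.0 and 35.9, and Ccl17 at 37.9 and 34.3, where 10, 7 and 7 of the 19 genes of other organs were brighter. These wild type levels cannot be told from background. Ccl5 lay little higher in wild type skin, at percentiles 42.9 and 40.7, just above the 40th, and 6 of the 19 were brighter. As a lower bound on these folds, set against the 40th percentile of each wild type array in place of the measured value, Ccl2 was at least 7.04-fold, Ccl17 at least 1.49-fold and Ccl7 at least 1.33-fold higher. In K5-IKKbeta skin Ccl2 reached the 82.4 and 79.3 percentiles, above all 19 genes of other organs. Ccl7 and Ccl17 stayed near the middle of the arrays there, at 46.3 and 46.8 and at 53.3 and 44.8, with 2 of the 19 brighter in each case. In wild type skin Ccl22 lay at percentiles 46.7 and 41.6, Ccl1 at 49.1 and 45.9 and probe set 1448898_at of Ccl9 at 43.8 and 46.6. For each of these, 3 of the 19 were brighter there. Ccl20 lay at 59.6 and 48.8 with 2 of the 19 brighter, and Ccl27a at 58.6 and 55.6 with 1. Ccl8 and probe set 1417936_at of Ccl9 lay above all 19 in both genotypes.

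**Figure D2:**
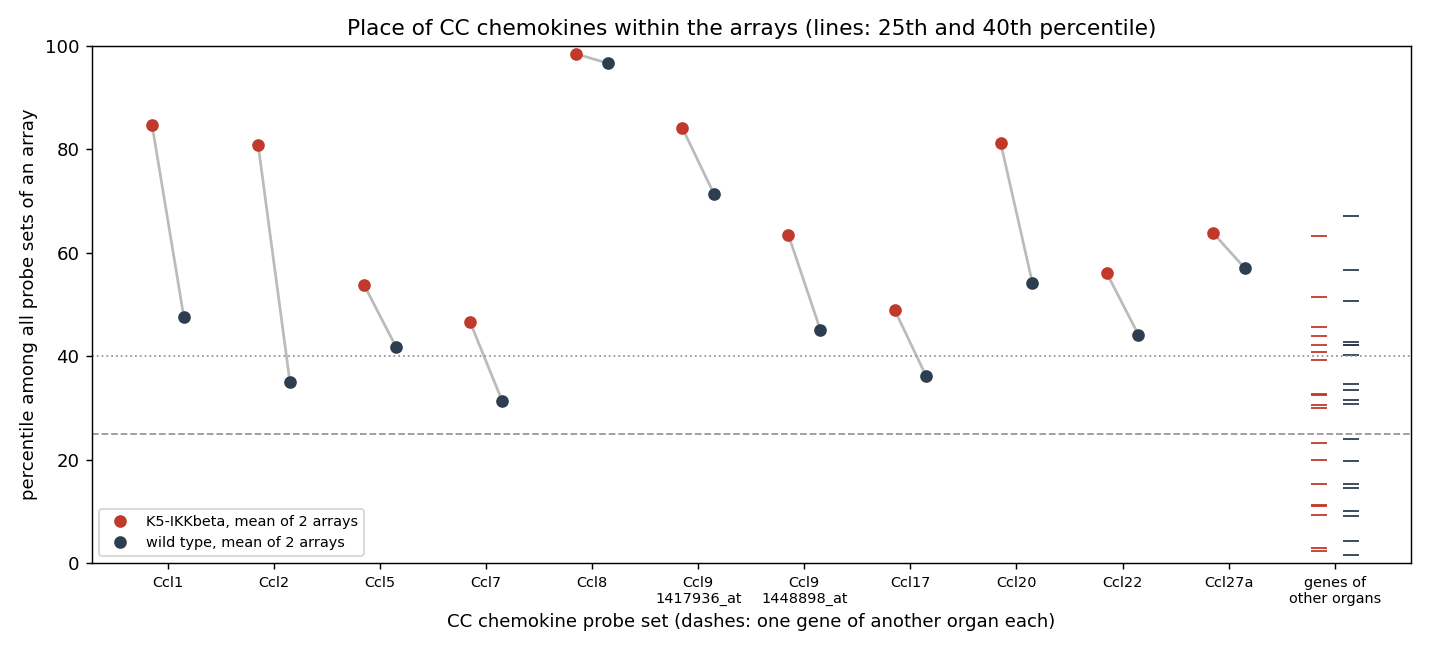
Percentile of each CC chemokine probe set among all probe sets of an array (vertical axis, mean of 2 arrays per genotype), for K5-IKKbeta (red, left) and wild type skin (dark, right), with 19 genes of other organs as dashes at the right. Ccl2 and Ccl1 show the widest gaps between the genotypes, while Ccl8 is near the top in both.

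Map position was not part of the choice of members. In the order of protein-coding genes of build GRCm38.p6, Ccl2, Ccl7, Ccl11, Ccl12, Ccl8 and Ccl1 follow each other on chromosome 11. All 6 were called higher, against 14.3% of all genes. But Ccl2, Ccl7, Ccl8 and Ccl1 are members, chosen with results known, and only Ccl11 and Ccl12 stand outside that choice. The measured log2 fold changes were 3.13 for Ccl2 and 2.69 for Ccl1, at the ends of this run, and 0.89 to 1.08 for the 4 genes between them. The wild type levels of Ccl2, Ccl7 and Ccl12 lay near background, so the order of sizes along the run is not established. Ccl11, which draws eosinophils, gave 7.53 and 7.26 in K5-IKKbeta skin against 6.47 and 6.16 in wild type skin (log2 fold change 1.08, adjusted p = 0.00546), and Ccl12, a monocyte attractant, gave 6.55 and 6.70 against 5.86 and 5.58 (0.91, adjusted p = 0.00646). Wild type values of Ccl12 lay at percentiles 32.2 and 28.7, and against the 40th it was at least 1.24-fold higher. The calls of Ccl11 and Ccl12 were lost without wild type pool 2 (adjusted p = 0.0573 and 0.0686). Further along chromosome 11, Ccl5, Ccl9, Ccl6, Ccl3 and Ccl4 also form a run. There Ccl6, a myeloid chemokine, was higher (log2 fold change 1.09, adjusted p = 0.028), with the K5-IKKbeta pools at 9.93 and 10.72 in the same order as those of Ccl9, against 9.23 and 9.25 in wild type. Its call was lost without wild type pool 1 (adjusted p = 0.156) and without wild type pool 2 (0.158). Ccl3 and Ccl4, made by activated leukocytes, are named for their place in this run. Ccl3 had a log2 fold change of 0.18 (adjusted p = 0.484) and Ccl4 one of -0.16 (adjusted p = 0.555), and Ccl3 lay below the 25th percentile on all arrays. On chromosome 8, Cx3cl1 between Ccl22 and Ccl17 had a log2 fold change of 0.18 (adjusted p = 0.412).

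**Figure D3:**
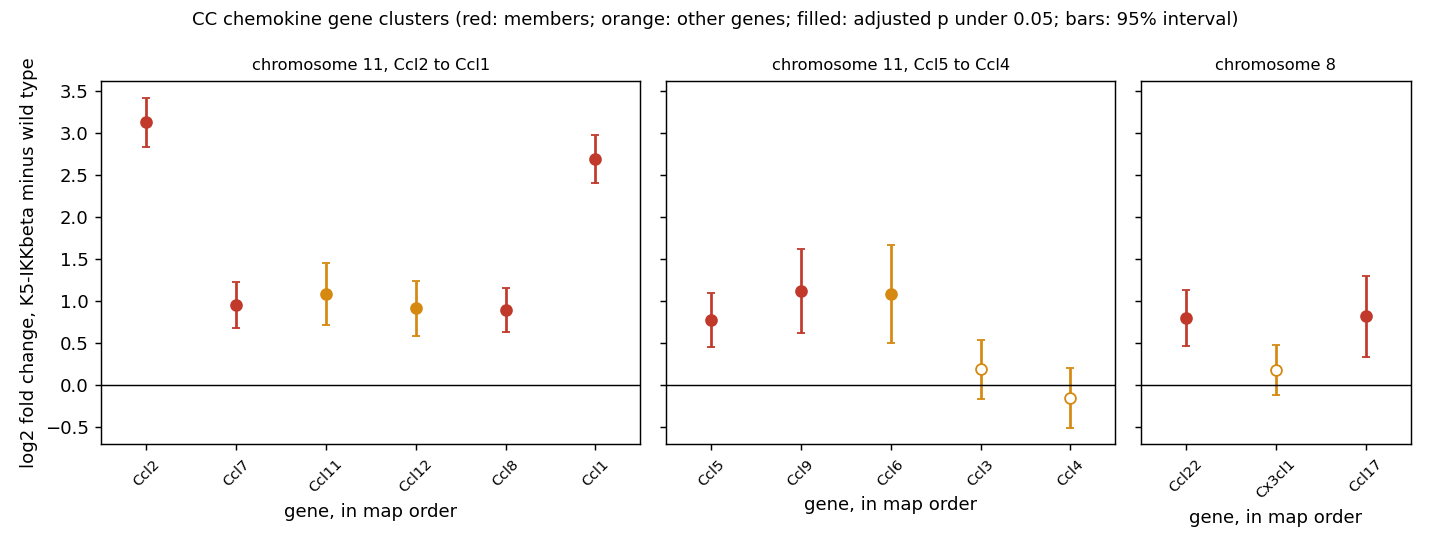
Log2 fold change of CC chemokine genes in the order of the map (horizontal axis, no distances), with limma's 95% intervals, for 2 runs on chromosome 11 and 1 on chromosome 8. Every gene from Ccl2 to Ccl1 is above 0 (for Ccl2, Ccl7 and Ccl12 against wild type levels near background), while Ccl3, Ccl4 and Cx3cl1 have intervals that hold 0.

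Over the other CC ligands, 8 of 14 had a probe set of their own, and 3 were called higher and none lower: Ccl6, Ccl11 and Ccl12. At an unadjusted p under 0.05 limma also found 0 lower. Of all 18194 genes, taken by the brightest probe set of each, 14.3% were called higher and 6.64% lower, with a median log2 fold change of 0.03, against 0.14 for these 8 ligands. Ccl25, a chemokine of gut and thymus, is named because its probe sets disagreed, a choice made after its values were seen. Its brightest probe set had a log2 fold change of -0.10 (adjusted p = 0.617) and another, 1418777_at, was lower (-0.61, adjusted p = 0.0119, and 0.112 and 0.0999 without either wild type pool).

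Most CC receptors did not pass, and neither did most genes: over all genes 14.3% were called higher and 6.64% lower. By their brightest probe sets Ccr3, Ccr8 and Ccr1l1 lay below the 25th percentile on all arrays, and Ccr4 and Ccr9 below the 40th. A change in these receptors could thus have been missed. Of 10 receptors with a probe set, 2 were called higher, Ccr6 and Ccr7, and none lower (0 also at an unadjusted p under 0.05), with a median log2 fold change of 0.19. With any probe set of a receptor counted, a choice made after the data were seen, Ccr2 made it 3. Ccr7, which guides dendritic cells to lymph nodes, gave 5.90 and 5.89 in K5-IKKbeta skin against 5.43 and 5.19 in wild type skin (adjusted p = 0.0219). It lay at percentiles 33.1 and 33.9 in K5-IKKbeta and 25.7 and 23.3 in wild type skin, so neither genotype can be told from background and no fold is given. Its call held without K5-IKKbeta pool 2 but was lost without each of the other arrays (adjusted p = 0.0527 to 0.18).

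Atypical receptors bind chemokines without the usual signal and remove or hold them. Pitpnm3, which is outside this class, was counted with them. Of these 6 genes 3 were called higher and 1, Pitpnm3, lower. Over all genes 14.3% were called higher and 6.64% lower. Ccrl2, which holds chemoattractants at the cell surface, gave 7.56 and 7.23 in K5-IKKbeta skin against 6.52 and 6.37 in wild type skin (log2 fold change 0.95, adjusted p = 0.00698). Ackr2, a scavenger of inflammatory CC chemokines, gave 7.26 and 7.08 against 6.19 and 6.61 in wild type (log2 fold change 0.77, adjusted p = 0.0232). Ackr1, the chemokine-binding protein of venules and red cells, gave 9.36 and 9.003 against 8.70 and 8.42 in wild type (0.62, adjusted p = 0.048). The other Ackr2 probe sets did not pass, at 0.43 and 0.46. Pitpnm3, reported as a receptor of CCL18 in human cells, gave 6.77 and 6.66 in K5-IKKbeta skin against 7.31 and 7.11 in wild type skin, and was lower (log2 fold change -0.50, adjusted p = 0.0391). The Ackr1 call was lost with another quantile normalization (0.0913) and with each array centred on its median (0.052). All 4 calls were lost without at least 1 of the arrays: without wild type pool 1 the adjusted p was 0.0517 for Ccrl2, 0.144 for Ackr2, 0.114 for Ackr1 and 0.266 for Pitpnm3.

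**Figure D4:**
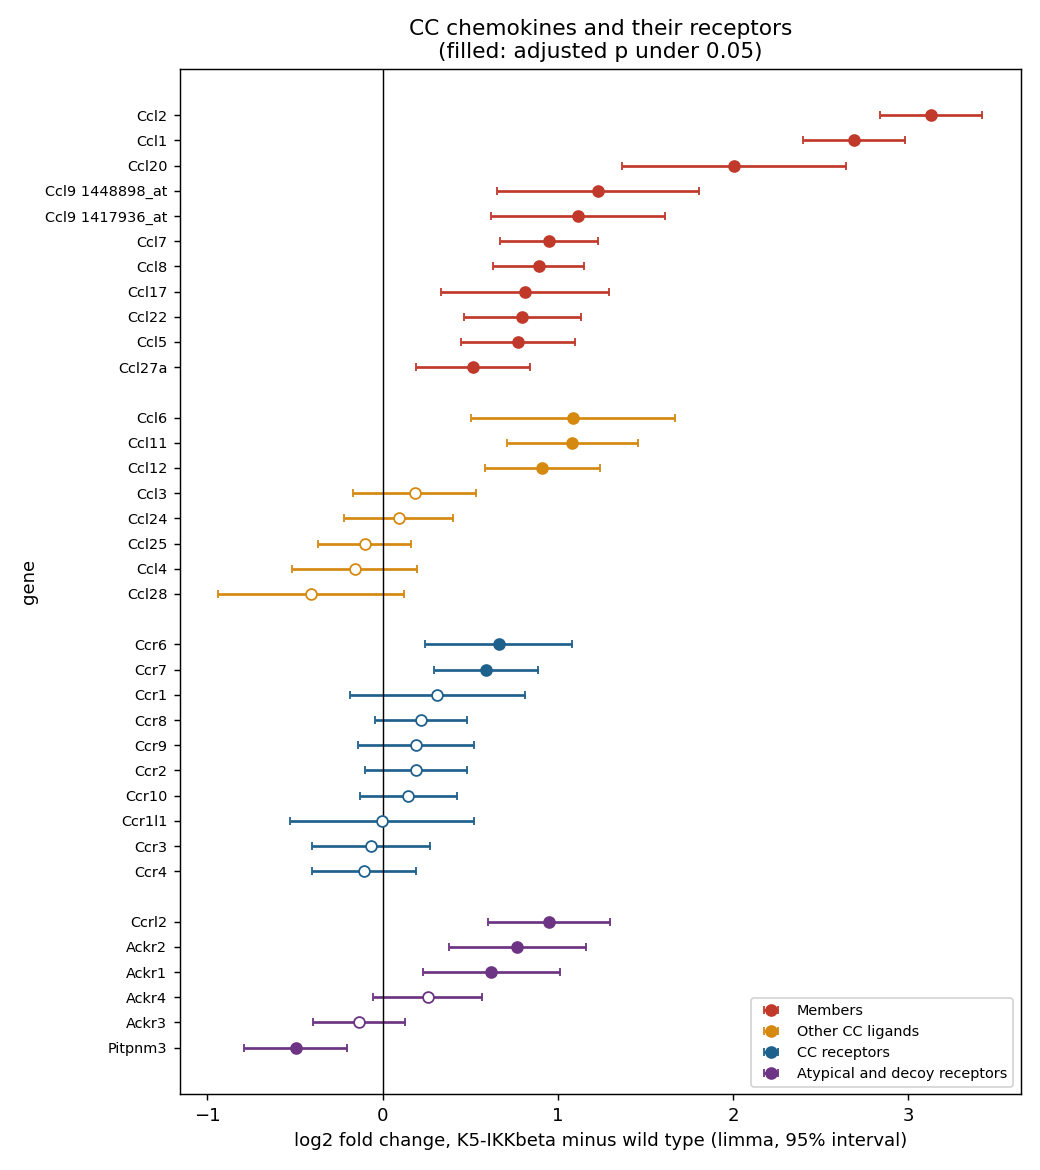
Log2 fold changes (horizontal axis, K5-IKKbeta minus wild type) with limma's 95% intervals for the 11 CC chemokine probe sets and for the brightest probe set of each other CC ligand, CC receptor and atypical receptor; filled points passed an adjusted p of 0.05. Pitpnm3 is shown with the atypical receptors. The 11 members lie above 0. The fitted values of Ccl2, Ccl1 and Ccl20 are 2.003 or more, and the interval of Ccl20 (1.36 to 2.64) overlaps those of Ccl9, Ccl6 and Ccl11.

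All 7 genes of a list of NF-kB targets, mainly its inhibitors and subunits, were called higher by their brightest probe sets. Over all genes 14.3% were called higher and 6.64% lower. The median log2 fold change of the 7 was 1.77, against 0.03 over all genes. The list was chosen with earlier results known. Nfkbie, an inhibitor of NF-kB, gave 8.24 and 7.97 in K5-IKKbeta skin against 4.18 and 4.58 in wild type skin, where it lay below the 25th percentile (adjusted p = 8.97e-05). It was at least 3.46-fold higher against the 40th percentile of the wild type arrays, and 6.77-fold against the 25th. Relb, an NF-kB subunit, gave 9.55 and 9.51 against 6.82 and 6.79 (6.63-fold, adjusted p = 4.52e-05).

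Pools of a genotype varied differently from gene to gene. K5-IKKbeta pool 1 was higher than pool 2 for 6 of the 11 probe sets, by up to 0.58 for Ccl20, and lower for the other 5, with the widest gaps of all for Ccl9 (0.64 and 0.76). Wild type pool 1 was higher than pool 2 for 9 of the 11, by up to 0.66 for Ccl20.

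The pattern of Ccl2 over the 4 arrays, taken because its probe set had the largest t statistic of the members, was most like that of 5 genes with changes of similar size. By Euclidean distance of mean-centred log2 values these were Ces4a (0.133), Krt16 (0.138), Cyp27b1 (0.228), Acaa1b (0.23) and Lcn2 (0.237), with log2 fold changes of 2.97 to 3.28. With 4 arrays in 2 groups this measures little beyond the size of the change.

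Markers of cells that make or answer to CC chemokines also differed between the genotypes. The counts below stand beside shares over all genes of 14.3% called higher and 6.64% called lower. All 9 measured monocyte and macrophage markers were called higher, with summed linear values (2 to the power of the log2 values, brightest probe set of each gene) of 11666 and 12245 in K5-IKKbeta arrays, against 5272 and 4849 in wild type arrays. Of 9 dendritic and Langerhans cell markers 5 were higher (sums of 20047 and 19124 against 7226 and 7162). In K5-IKKbeta arrays these sums rest mainly on Cd74 and H2-Aa. Flt3, Zbtb46, Xcr1 and Epcam did not pass (log2 fold changes of 0.28, 0.09, 0.34 and -0.32). Of 6 mast cell markers 4 were higher (4168 and 5689 against 2017 and 2250). Of 7 T cell markers 2 were higher, led by Cd3g at a log2 fold change of 1.17 (1244 and 1015 against 896 and 826). None of 4 neutrophil markers passed by limma (sums of 324 and 265 against 292 and 286, with 0 at an unadjusted p under 0.05). Of these, Cxcr2 and Mpo lay below the 40th percentile on all arrays, and Ly6g and Retnlg had no probe set. A change in neutrophils could thus have been missed. Foxp3 and Fcer1a lay below the 25th percentile on all arrays.

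Markers of resident cells stand beside shares of 14.3% higher and 6.64% lower over all genes. Of 5 fibroblast markers 3 were higher (sums of 62744 and 70979 in K5-IKKbeta arrays against 53124 and 49337 in wild type arrays), and of 5 endothelial markers 2 (1305 and 1328 against 913 and 937). Basal keratinocyte markers were higher in 2 of 6 (37152 and 31510 against 25758 and 24258). Suprabasal markers were split, with 3 higher and 3 lower of 6 (54546 and 44922 against 31776 and 33206). All 7 hair shaft markers were lower, with sums of 2348 and 3479 in K5-IKKbeta arrays against 84664 and 86401 in wild type arrays. The part of these differences in the chemokine values was not tested.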

How the data were processed

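The authors deposited 1 RMA value per probe set and array, as the submitters' processing notes name it without a version. The log base is stated nowhere, and the deposited values, from 2.65 to 14.7, were taken as log2 and not normalized again. Which build or annotation the authors used is not given in the sources used here. Of 45101 probe sets 34958 had 1 symbol in the platform annotation, 932 several and 9211 none. Symbols were checked by gene identifier against the RefSeq table of GRCm38.p6 (34754 matched, 0 changed). All probe sets were fitted without a filter in R 4.3.3 by limma 3.58.1, with genotype as the single term, lmFit and eBayes, and two-sided p-values (prior degrees of freedom 4.46, residual 2), and the code was tested on simulated data. For lists of genes the brightest probe set stood for a gene. A fold is called at least when both wild type arrays lay below a percentile of their array. The number of arrays limits the precision, and p-values measure the spread between pools. Named were every member, called genes of the related lists, the receptors of members, the 2 NF-kB genes of the largest fold and the 5 nearest patterns. Members and lists were chosen with earlier results of these data known. Alternatives were filters on dim probe sets, 1 probe set per gene, other normalizations and moderation, a test against a 1.2-fold change, shared-sequence probe sets left out, a replicate block and each array left out, with effects in the closing section.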

Additional observations from a re-analysis of the deposited data

How the results depend on the processing

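Over 144 values of single members under the alternatives, 115 kept their call and 29 lost it. Members that a setting removed are not among the 144. All 144 log2 fold changes were positive (0.38 to 3.24) and 0 reversed, but this was largely fixed in advance. Most alternatives leave the fitted log2 fold change as it was. For 11 of 11 members both K5-IKKbeta arrays lay above both wild type arrays, so leaving out an array could not reverse a sign. The replicate number as a block left 11 of 11 members and 7139 of all probe sets called (7350 without it), and ended the call of Ackr2 (adjusted p = 0.0556). With 2 pairs the number is not shown to pair the pools. Deviations of same-numbered pools correlated at 0.255 across probe sets. With the brightest probe set per gene above the 40th percentile 13074 genes were tested. Of these 4436 were called, 3056 of them higher, with 1 CC receptor. In the main fit, by the brightest probe set of each of 18194 genes, 2599 were called higher and 1208 lower. Without moderation 19 probe sets passed, 11 of them higher, with 0 members, 0 other CC ligands, 0 receptors and 0 atypical receptors in either direction. Testing against a 1.2-fold change gave 3612, 2379 of them higher, with 8 of 11 members (Ccl5, Ccl17 and Ccl27a lost), 0 receptors, and 1 atypical receptor higher and 0 lower. The filter at the 40th percentile left 1 receptor called. That at the 60th, which removes dim probe sets, left 5 of 5 tested members, 1 other ligand and 0 receptors. It left 1 atypical receptor higher and 0 lower. The filters use the mean over all 4 arrays, those of K5-IKKbeta included. Ccl1, Ccl20 and Ccl27a passed the 60th with wild type values below it, so the 5 of 5 is a description. Another quantile normalization and centring on the median each left 10 of 11 members (Ccl27a lost), 1 receptor and 2 atypical receptors higher (Ackr1 lost). Leaving out each array in turn gave 2530 to 7114 probe sets, 1648 to 4416 of them higher. For the lists it gave 5 to 11 members, 0 to 3 other ligands higher and 0 to 1 lower, 0 to 2 receptors, 0 to 3 atypical receptors higher and 0 lower. The lowest member counts were 5 without wild type pool 2 and 6 without wild type pool 1, and the cause was not tested. The lone array of such a group is assumed to vary like the other group.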
